A study of Rattus norvegicus with 8 samples.

Results

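Laminins are the chief adhesive proteins of the basement membrane, and the Schwann cell receptors that bind them anchor the cell to it. The set described here held 10 genes: the laminin chains Lama2, Lama4, Lamb1, Lamb2 and Lamc1, and the receptor genes Itga6, Itga7, Itgb1, Itgb4 and Dag1. They were chosen by name, as the chains and receptors known from Schwann cells. A gene was taken as measured where a probe's accession matched its RefSeq symbol and the probe had deposited values, and the probe with the highest mean over the 8 samples stood for it. Of the 10 genes, 5 were measured (Lamb2, Lamc1, Itga7, Itgb1 and Itgb4), out of 12765 genes with deposited values. Lama2, Lama4, Lamb1, Itga6 and Dag1 matched no such probe and were not analysed here.

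RNA of 8 samples, all from Sprague-Dawley rats with no genetic change, was measured on one-colour expression arrays, 1 array for each of 8 groups. In adult females the left sciatic nerve was cut at mid-thigh, and on day 1 its proximal and distal segments and the uncut right nerve (the contralateral control, whose label names a PBS injection site) were taken, each as a pool of 3 animals. Spinal cord was taken on day 5 as a dorsal hemisection sample and a C-level control, again as pools of 3 (labelled as days after an injection of an unnamed agent, while the protocol gives days after injury). Primary Schwann cells came from sciatic nerves of postnatal pups, freed of fibroblasts with AraC, antibody and complement and grown on coated dishes. They were left unstimulated and taken at 24 h, or exposed for 1 h or 24 h to 5 µg/ml of the S100A8/A9 complex, an alarmin of neutrophils. The 1 h culture therefore has no unstimulated culture of its own time. With 1 array a group no difference could be tested against the spread between samples, and none carries a p-value; ± below is the error from replicate spots of a probe on the array and covers only that technical part.

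Levels are the authors' deposited log2 values, under the sample that heads each column of their table; a difference of 1 on this scale is 2-fold. The scanner files pair arrays with samples otherwise. For 7 of the 8 samples the scan that ranks like the sample's column is recorded under another sample, and only the distal nerve has the same scan in both. Every comparison below rests on the column headings, and the closing section gives the values under the other pairing. Read by the headings, the neuron list had median levels of 12.43 and 13.77 in the cord samples, against 4.72 to 5.68 in the nerves and 6.06 to 6.53 in the cultures. Its detection separated them less, at 9 of 9 genes well above background in cord, 8 of 9 in nerve and 6 or 7 of 9 in culture. The macrophage list was well above background at 5 of 10 genes in each Schwann cell sample and at 10 of 10 in each nerve and cord sample. All 10 Schwann cell markers were well above background in all 8 samples. The share of the 30367 probes well above background ran from 66.7% to 77.6% over the 8 arrays.

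A laminin is a trimer of an α, a β and a γ chain. Schwann cells secrete it, assemble it with type IV collagen, nidogen and proteoglycans on their outer face, and bind it through integrins (α6β1, α7β1 and, around myelin, α6β4) and through dystroglycan. In peripheral nerve this contact is needed for axon sorting, proliferation and myelination, and perineurial and endothelial cells carry basement membranes of their own. Lamb2 codes for the β2 chain and Lamc1 for the γ1 chain that most laminins share. Itgb1 codes for the common β1 partner, Itga7 for the laminin-binding α7 subunit, which is also prominent on muscle fibres, and Itgb4 for the β4 subunit, which in nerve is known from myelinating Schwann cells and the perineurium.

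Promoter sequence from RefSeq (build GRCr8) was at hand for 2 of the 5 measured genes, Lamc1 and Itgb1, and both are shown. Each run is the 250 bases before the annotated start, 5′ to 3′ along the gene, for Lamc1 at chr13:68051987-68052236 on the minus strand and for Itgb1 at chr19:73602027-73602276 on the plus strand. Capitals mark matches to any of the 5 motifs searched on both strands.
Lamc1: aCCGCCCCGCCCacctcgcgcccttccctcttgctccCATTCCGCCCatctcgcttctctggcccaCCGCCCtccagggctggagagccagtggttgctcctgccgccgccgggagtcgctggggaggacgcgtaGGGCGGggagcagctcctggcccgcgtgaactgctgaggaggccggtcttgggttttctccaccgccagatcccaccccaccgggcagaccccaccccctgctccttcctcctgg
Itgb1: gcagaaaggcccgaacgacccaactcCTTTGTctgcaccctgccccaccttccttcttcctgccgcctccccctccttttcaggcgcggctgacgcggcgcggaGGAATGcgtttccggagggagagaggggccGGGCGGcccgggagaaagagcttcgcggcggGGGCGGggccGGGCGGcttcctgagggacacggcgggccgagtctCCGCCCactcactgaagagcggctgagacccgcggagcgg
The motifs were AP-1 (TGANTCA), SP1 (GGGCGG), TEAD (GGAATG), SOX (ACAAAG) and EGR (GCGTGGGCG). The Lamc1 window held 5 SP1 matches and 1 TEAD match; the TEAD match at bases -213 to -208 from the start shares letters with the SP1 match at -209 to -204, and the first pair of SP1 matches also share a letter. The Itgb1 window held 4 SP1 matches, 1 TEAD match at -146 to -141 and 1 SOX match at -224 to -219. Of 33469 windows of 250 bases in the table, 30.5% held SP1, 12.1% TEAD, 16.3% SOX, 6.34% AP-1 and 0.478% EGR, and neither gene had a match to the last pair. A match is a string of letters and no measured binding site.

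Among the ligands, Lamb2 read 12.78 in contralateral nerve, 11.29 in the proximal and 10.67 in the distal segment, 9.98 in C-level cord and 10.52 in the dorsal hemisection, and 11.89, 11.71 and 11.93 in Schwann cells unstimulated, at 1 h and at 24 h of S100A8/A9. The uncut nerve was the highest of the 8 samples, the 3 cultures came next, both cut segments lay lower and the cord samples were lowest. In that order the neighbours differed by more than 2 spot errors except the 24 h and unstimulated cultures.

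Lamc1 read 14.06 in contralateral nerve, 12.94 in the proximal and 12.62 in the distal segment, 11.01 in C-level cord and 12.05 in the dorsal hemisection, and 15.37, 15.18 and 15.38 in the unstimulated, 1 h and 24 h cultures. Here the cultures were the highest samples, above every nerve sample, and cord was again lowest. The unstimulated and 24 h cultures were the only neighbours within 2 spot errors. A second Lamc1 probe kept the cultures highest and the C-level cord lowest.

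Among the receptors, Itgb4 read 16.58 in contralateral nerve, 14.85 in the proximal and 14.27 in the distal segment, 13.17 in C-level cord and 13.36 in the dorsal hemisection, and 11.33, 10.0 and 11.56 in the unstimulated, 1 h and 24 h cultures. The order was nerve, cord, then culture, so that all 3 cultures lay below both cord samples, unlike the other 4 genes. Every neighbouring pair in this order was more than 2 spot errors apart.

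Itgb1 read 12.84 in contralateral nerve, 12.69 in the proximal and 12.66 in the distal segment, 10.93 in C-level cord and 11.82 in the dorsal hemisection, and 13.66, 13.59 and 13.51 in the unstimulated, 1 h and 24 h cultures. The nerve samples lay close together between the cultures above and the cords below. Within the cultures, and between the cut segments, neighbours were within 2 spot errors by this probe. A second Itgb1 probe read 11.49 in the proximal and 11.23 in the distal segment. It read 11.69, 11.82 and 12.01 in the unstimulated, 1 h and 24 h cultures, with spot errors of 0.017 to 0.019 in these samples. The second probe thus separated them and put the unstimulated culture lowest of the cultures.

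Itga7 had the dimmest probe, at 8.89 in contralateral nerve, 8.64 in the proximal and 7.84 in the distal segment, 6.45 in C-level cord and 7.2 in the dorsal hemisection, and 7.37, 7.37 and 7.42 in the unstimulated, 1 h and 24 h cultures. Nerve was highest, and the 3 cultures and the dorsal hemisection could not be ordered beyond 2 spot errors. All 5 genes were well above background in all 8 samples.

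**Figure D1:**
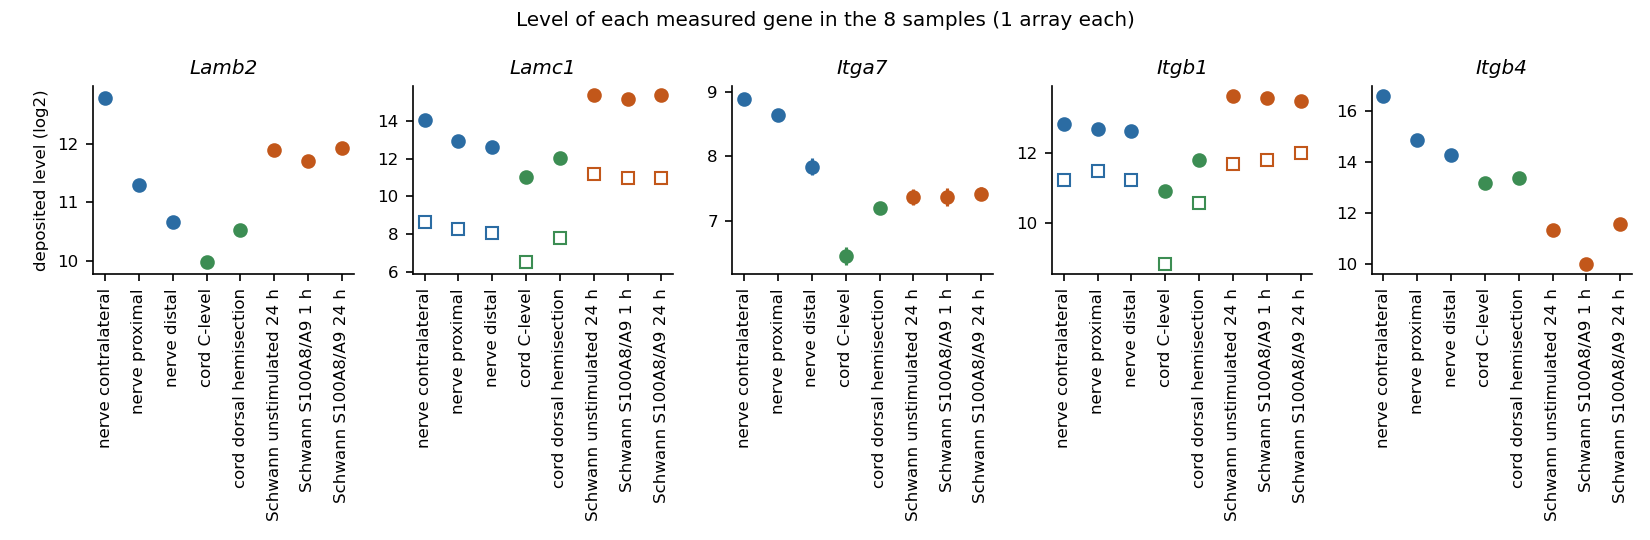
Deposited log2 level (y axis, its own range for each gene) of the 5 measured genes in the 3 nerve (blue), 2 cord (green) and 3 Schwann cell (orange) samples, 1 array each; bars are the replicate-spot error, mostly smaller than the point, and open squares are the second probe of Lamc1 and Itgb1. Itgb4 spans 10.0 to 16.58 with the cultures lowest, while Lamc1 and Itgb1 are highest in the cultures.

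One day after the cut, 4 of the 5 genes were at least 2-fold lower in the distal segment than in the contralateral nerve. The comparison sets the stump cut off from its cell bodies against uncut nerve. Itgb4 was 4.94-fold lower (log2 difference -2.3 ± 0.07), and 2.29% of all genes were lower still. Lamb2 was 4.33-fold lower (-2.11 ± 0.08). Lamc1 was 2.72-fold lower (-1.44 ± 0.03) and Itga7 2.07-fold lower (-1.05 ± 0.15). Itgb1 differed by -0.19 ± 0.07. Thus both measured chains and the α7 and β4 subunits were lower and the shared β1 subunit was nearly level. Of all 12132 genes measured in this comparison, 14.3% were at least 2-fold lower and 13.9% at least 2-fold higher, with a median difference of 0.01.

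Several of these values depend on the probe or scale. The second Lamc1 probe gave -0.62 for distal against contralateral nerve, below 2-fold, and the second Itgb1 probe gave -0.01. With background-modelled scanner signals (normexp) Itga7 came to -0.82, also below 2-fold.

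The proximal segment, still joined to its cell bodies, had 3 of the 5 genes at least 2-fold lower than the same contralateral nerve, where 11.8% of all genes were lower and 11.7% higher. The differences were -1.73 ± 0.07 for Itgb4, -1.49 ± 0.08 for Lamb2 and -1.12 ± 0.03 for Lamc1. Itga7 and Itgb1 differed by -0.26 ± 0.09 and -0.15 ± 0.07. The second Lamc1 probe gave -0.38 and the second Itgb1 probe 0.24, so the direction for Itgb1 is not settled here. Because both segments were set against 1 control sample, their likeness is not independent.

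Between the segments, all 5 genes read lower distally and 0 passed 2-fold, where 1.94% of all genes did so downwards and 1.24% upwards (2.4% and 0.8% on the matched scans at the 75th percentile). The differences ranged from -0.79 ± 0.15 for Itga7 and -0.62 ± 0.06 for Lamb2 to -0.03 ± 0.05 for Itgb1. Itgb4 differed by -0.58 ± 0.05 and Lamc1 by -0.32 ± 0.02.

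Markers of the cells that could carry these transcripts moved as well. In the distal segment 6 of 10 Schwann cell markers were at least 2-fold lower than in contralateral nerve (median -1.74), and 1 was higher, Ngfr, the low-affinity neurotrophin receptor of denervated Schwann cells, at 1.6. Of 11 fibroblast and perineurial markers 8 were at least 2-fold lower (median -1.49), with Cldn1, a tight junction claudin of the perineurium, at -2.75. In the proximal segment the counts were 5 of 10 and 7 of 11. Macrophage markers were higher, 7 of 10 in the distal segment (median 1.68). Fewer cells of a type and less RNA per cell cannot be told apart in such tissue samples, and the part of these markers in the laminin values was not tested.

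Skeletal muscle markers were at least 2-fold higher in the proximal segment at 10 of 10 genes (median 4.62, list median level 12.18 against 7.8 in contralateral nerve), and in the distal segment at 7 of 9 (median 1.51, list level 9.06). Between the segments 10 of 10 were lower distally. Itga7 is carried by muscle too. It differed by -0.79 ± 0.15 between the segments, and with normexp by -0.59, where Lamb2 differed by -0.6. The part of muscle RNA in the Itga7 values was not tested. Relative to C-level cord, the muscle list had a median of -1.62 in the dorsal hemisection, with 7 of its 10 genes down by 2-fold or more. In contralateral nerve its median was -2.4, with 8 of 10 down by that much. Itga7 differed from C-level cord by 0.74 in the dorsal hemisection and by 2.44 in contralateral nerve. Tissue, or region and treatment, differ in these comparisons as well, so they cannot show the part of muscle RNA in the cut segments.

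**Figure D2:**
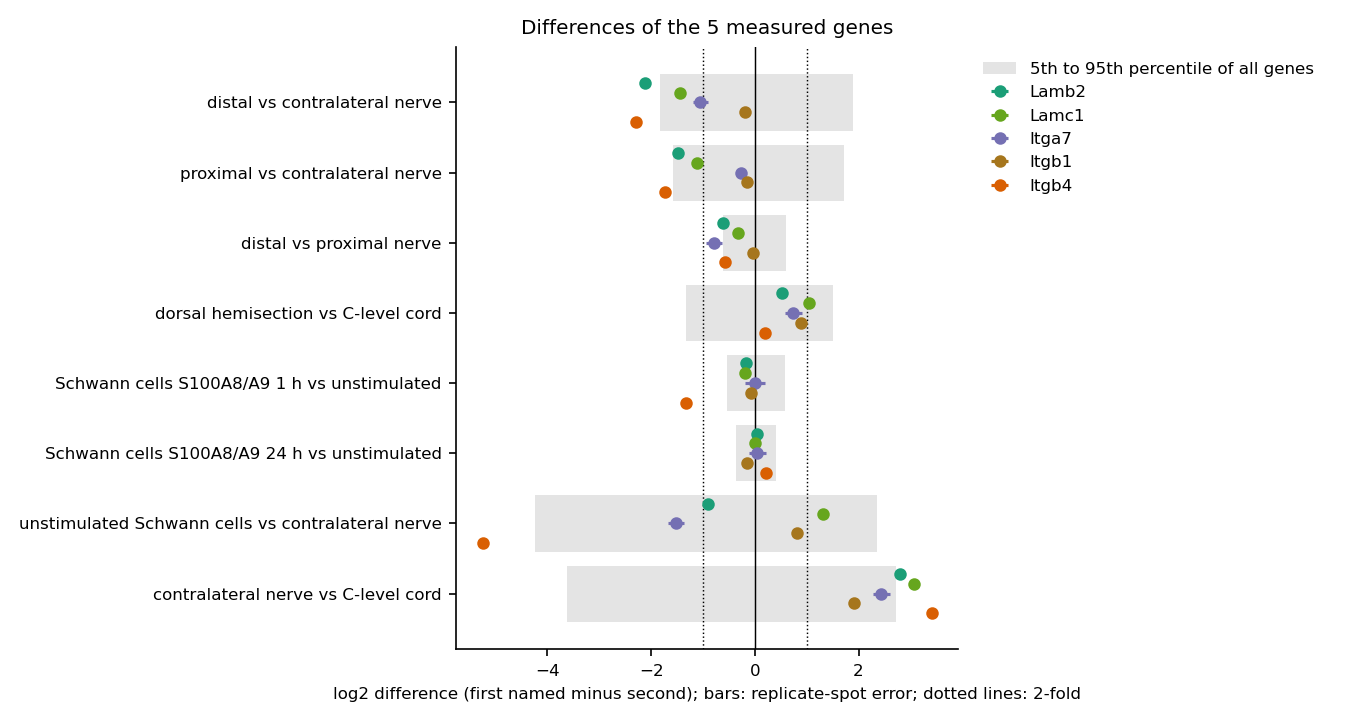
Log2 differences (x axis, first named minus second) of the 5 measured genes in the 8 comparisons, with replicate-spot error bars; grey bars span the 5th to 95th percentile of all measured genes and dotted lines mark 2-fold. Among the points outside the grey bar are Itgb4 (-2.3) and Lamb2 (-2.11) in distal against contralateral nerve, and Itgb4 (-1.33) in the 1 h culture. Others are Itgb4 in proximal against contralateral nerve (-1.73) and in culture against nerve (-5.24), and Itga7 between the segments (-0.79). In contralateral nerve against C-level cord, Lamb2 (2.8), Lamc1 (3.06) and Itgb4 (3.41) lie outside it too.

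In the cord, all 5 genes read higher in the dorsal hemisection than at C-level, and 1 of the 5, Lamc1, passed 2-fold, where 10.1% of all genes were higher by that much and 9.24% lower. Lamc1 differed by 1.04 ± 0.03, Itgb1 by 0.89 ± 0.06, Itga7 by 0.74 ± 0.16, Lamb2 by 0.53 ± 0.07 and Itgb4 by 0.19 ± 0.05. The second probes gave 1.31 for Lamc1 and 1.76 for Itgb1, so by its second probe Itgb1 passed 2-fold too. With normexp signals Lamc1 came to 1.0, just under the threshold. Beside these values, 5 of 11 fibroblast and perineurial markers and 9 of 10 macrophage markers were at least 2-fold higher in the dorsal hemisection, and 8 of 9 neuron markers were at least 2-fold lower. The part of these cell types was not tested, and the cord samples differ in region as well as in treatment, which cannot be told apart.

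In Schwann cells given S100A8/A9, 4 of the 5 genes lay within 0.2 log2 units of the unstimulated culture at both times by their chosen probes. The exception was Itgb4, which at 1 h was 2.52-fold lower than in the unstimulated culture (-1.33 ± 0.06), with 0.547% of all genes lower still; at 24 h it differed by 0.22 ± 0.06. At 1 h the background was 1.34% of 10968 genes at least 2-fold lower and 1.65% higher (0.5% and 0.4% with normexp). Lamb2 and Lamc1 differed by -0.18 ± 0.05 and -0.19 ± 0.02, Itgb1 by -0.07 ± 0.05, and Itga7 by 0.0 ± 0.19. At 24 h the other differences were 0.05 for Lamb2, 0.0 for Lamc1, 0.05 for Itga7 and -0.15 for Itgb1, and 0 of 5 passed 2-fold where 0.608% of all genes were higher and 0.626% lower. The second Itgb1 probe gave 0.13 at 1 h and 0.31 at 24 h, opposite in sign to the first.

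Some Schwann cell markers also read lower at 1 h. Of 10 Schwann cell markers 3 were at least 2-fold lower, among them Ngfr, at 13.5 against 14.73, and Mbp, a myelin protein, at 8.58 against 9.63. The median of the list was -0.53 at 1 h and 0.0 at 24 h. The unstimulated culture was taken at 24 h, so for the 1 h values the protein and the time in culture cannot be told apart.

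Cultured Schwann cells, from pups, and the contralateral nerve of adults differed most in Itgb4 among the 5 genes. The unstimulated culture was 37.89-fold lower in Itgb4 than the contralateral nerve (-5.24 ± 0.08), which 3.32% of all genes undercut, and 2.86-fold lower in Itga7 (-1.52 ± 0.15). Lamc1 was higher in culture (1.31 ± 0.03), Itgb1 differed by 0.82 ± 0.07 and Lamb2 by -0.9 ± 0.07. So 2 of the 5 genes were at least 2-fold lower and 1 was higher, against 20.6% and 21.6% of 11944 genes; the median of all genes was 0.22. The second probes kept the directions, at 2.54 for Lamc1 and 0.45 for Itgb1. Markers of other cell types differed as well. Of 9 endothelial markers 3 or 4 were well above background in a culture, of 11 fibroblast and perineurial markers 8, and of 9 mural markers 9. The share of all probes was 66.7% to 69.2% in the cultures. In the unstimulated culture 8 of 9 endothelial markers were at least 2-fold lower than in the nerve and 0 higher (median -6.56). Of the 11 fibroblast and perineurial markers 8 were lower and 1 higher (median -5.35). Cldn1 of the perineurium was not well above background in the unstimulated culture. The collagen gene Col1a1, the 1 marker of that list at least 2-fold higher there, read 17.97 against 16.94 in the nerve. Of the mural markers 3 were at least 2-fold higher than in the nerve and 4 lower. Age, substrate, medium and the cells present differ together between culture and nerve and cannot be told apart.

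Set against C-level cord, the contralateral nerve was higher in all 5 genes by at least 2-fold, where 19.8% of all genes were higher and 18.6% lower. Itgb4 was 10.6-fold higher (3.41 ± 0.07), Lamc1 differed by 3.06 ± 0.03, Lamb2 by 2.8 ± 0.08, Itga7 by 2.44 ± 0.16 and Itgb1 by 1.91 ± 0.08. The second probes of Lamc1 and Itgb1 gave 2.17 and 2.44. Fibroblast and perineurial markers were at least 2-fold higher in the nerve at 10 of 11 genes (median 4.75), and neuron markers lower at 9 of 9.

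The rest of the pathway was read through 7 lists of genes that share a role. Their counts stand against the shares over all genes: 13.9% higher and 14.3% lower in the distal segment, 11.7% and 11.8% in the proximal segment, 10.1% and 9.24% in the dorsal hemisection, and 21.6% and 20.6% in the unstimulated culture. Of 6 other laminin chains 4 had values, and 3 were measured in the distal and contralateral nerve. There Lama5, the α5 chain of vessel and epithelial basement membranes, differed by -1.29 and Lamb3 by -1.46. In culture Lama5 was lower than in the nerve by a difference of -1.94.

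Other basement membrane components were lower in the distal segment at 8 of 9 measured genes, with a median of -1.16 against 0.01 over all genes. Col4a4, a type IV collagen chain, differed by -2.19, Smoc2, a secreted calcium-binding matrix protein, by -1.78, and Nid2, a nidogen that links laminin to collagen, by -1.09. Col18a1, the collagen that yields endostatin, was the exception at 0.37. In the proximal segment 5 of 9 were lower and 1, Col18a1, higher at 1.01. In the dorsal hemisection 3 of 9 were higher, led by Col18a1 (2.83) and Col4a1 (2.07). Culture split this list: 4 of 9 were at least 2-fold higher than in contralateral nerve and 3 lower. Agrn, the proteoglycan that binds laminin and dystroglycan, was higher by 3.67 and Col18a1 by 4.05, whereas Smoc2 differed by -5.49.

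The dystroglycan complex, which ties laminin to the cytoskeleton, was lower in the distal segment at 7 of 12 measured genes and higher at 0 (median -1.42). Sspn, or sarcospan, differed by -2.97. Prx, or periaxin, which joins dystroglycan through Drp2 in myelinating Schwann cells, differed by -2.07. Sgca, a sarcoglycan, differed by -0.16. In the proximal segment the count was again 7 of 12. In culture 6 of 12 were at least 2-fold lower than in nerve: Prx by -5.89, and Drp2, not well above background there, by at most -6.17. In the dorsal hemisection Prx read 10.18 against 7.45 at C-level.

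The 17 genes that glycosylate dystroglycan so that it can bind laminin were all measured. In the distal segment 1 was at least 2-fold higher and 3 were lower (median -0.28), beside 13.9% and 14.3% of all genes. Such small counts do not set the list apart from all genes. Gmppb, which makes the mannose donor, differed by 1.71. In culture 5 of 17 were higher and 0 lower, where 21.6% of all genes were higher and 20.6% lower.

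Among 9 other laminin-binding surface genes, 4 were at least 2-fold lower in the distal segment and 1 was higher, beside 14.3% and 13.9% of all genes. Bcam, a receptor for the α5 chain, differed by -1.94 and Sdc3 by -1.84, while the syndecan Sdc1 was higher by 2.63 distally, 3.38 proximally and 3.45 in the dorsal hemisection. In culture Bcam differed from the nerve by -4.05 and Adgrg6, an adhesion receptor of Schwann cells that drives myelination, by 2.09. Of 8 other integrin subunits 2 were higher in the distal segment, Itgb7 (2.26) and Itga4 (1.84), which are known from leukocytes, and 2 were lower, Itga8 (-1.72) and Itgb6 (at most -1.21). The median of these 8 was 0.04, and so few genes do not set the list apart from the 13.9% and 14.3% of all genes. Itgb7 was not well above background in the unstimulated culture.

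Of 16 adapters and kinases that act below integrins, 3 were at least 2-fold higher in the distal segment, including Fermt1 (1.8) and Parvb (1.67), and 1 was lower, Lims2 (-2.08). The list median was -0.25, and so few genes do not set this list apart either from the 13.9% and 14.3% of all genes. Lims2, a partner of integrin-linked kinase, was lower in culture too, at -2.77, where the kinase Src was higher by 2.98. In the cultures given S100A8/A9, 0 genes of these 7 lists passed 2-fold at 1 h or at 24 h. Lims2 came nearest, at -0.98 at 1 h.

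**Figure D3:**
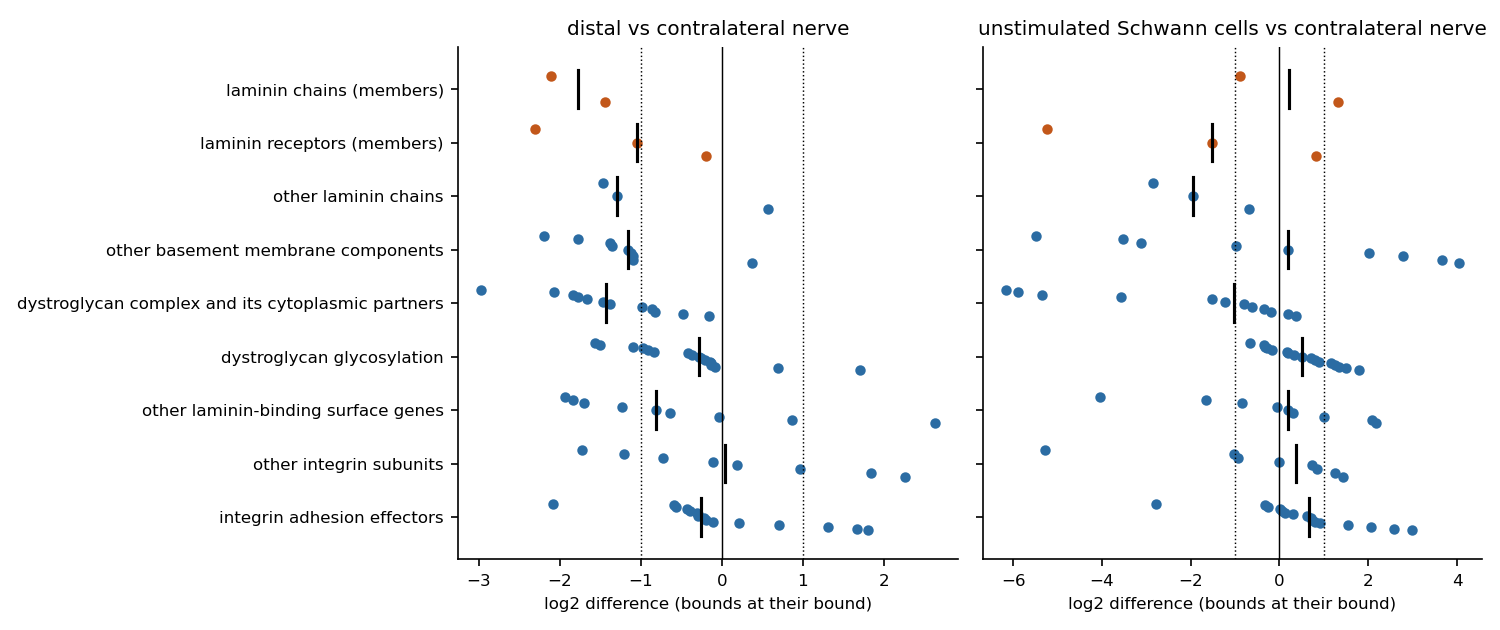
Log2 differences (x axis) of every measured gene of the laminin chains and receptors (orange) and of 7 lists of related genes (blue), in distal against contralateral nerve (left) and unstimulated Schwann cells against contralateral nerve (right); black bars are list medians, dotted lines 2-fold, and genes with a bound are drawn at it. On the left, the basement membrane list (median -1.16) and the dystroglycan complex (median -1.42) lie mostly below 0.

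Profiles over the 8 samples were compared after centring each gene on its own mean, and likeness was the root mean square (RMS) log2 difference over the 8 samples among 9888 genes well above background in all 8. Lamb2 was nearest to Disp1, which acts in hedgehog release (RMS 0.16), then Upk3a (0.24) and Inka2 (0.25). Lamc1 was nearest to Plekhg2 (0.15), Mfsd12 (0.2) and Sod3, the extracellular superoxide dismutase (0.2). Itga7 was nearest to Ly6g6d (0.14), Fhl2 (0.18) and Sec16b (0.2), and Itgb1 to Rab3d (0.14), Cers5 (0.15) and Hacd1 (0.15). By this measure Itgb4 had no equally close neighbour: Smoc2 and the tetraspanin Cd9 stood at 0.38 and Crispld2 at 0.47. The levels were not scaled, so the RMS grows with the range of a gene. Itgb4 had the widest range of the measured genes, from 10.0 to 16.58.

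No measured gene was among the 3 nearest of another, so by the way neighbours were chosen each lay further from the other measured genes. Ranked by likeness among the 9888 genes, the measured genes stood from 208th (Itgb1, seen from Lamc1) to 9514th (Lamc1, seen from Itgb4). Lamb2 and Lamc1, whose products join in the same trimers, were 0.99 apart, and Lamb2 and Itgb1 0.59. Lamc1 and Itgb4 were 3.07 apart, since the first was highest in culture and the second lowest there. With 8 samples of 3 kinds, a small RMS mostly shows a like step between nerve, cord and culture.

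**Figure D4:**
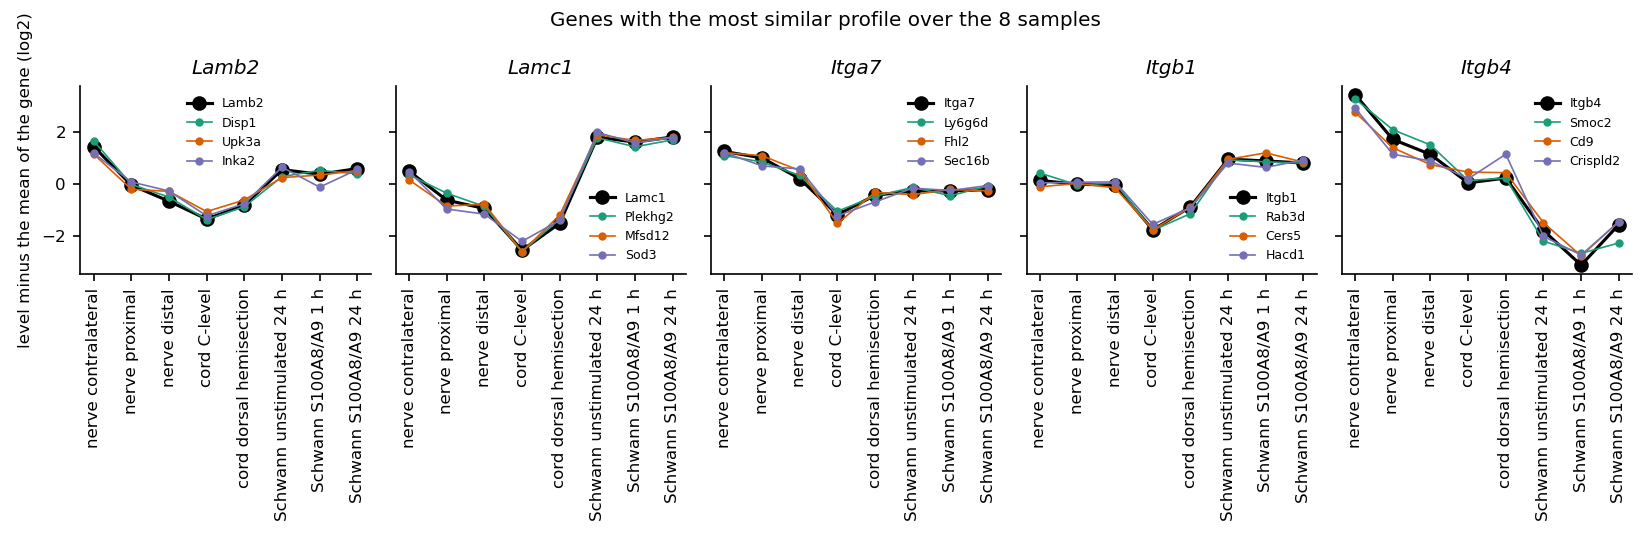
Centred log2 level (y axis, level minus the gene's mean) of each measured gene (black) and its 3 nearest genes (colours) in the 8 samples. The neighbours of Lamb2, Lamc1, Itga7 and Itgb1 run within 0.25 RMS of the gene, and those of Itgb4 within 0.47.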

How the data were processed

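Rat RNA was measured on 8 one-colour Agilent arrays, 1 a group. The authors' deposited value table holds log2 values for 24938 rows, 24894 of them probes; every column has the median 8.03, and no source used here names the normalization. The scanner files hold spot intensity, read per the file headers by Feature Extraction 10.7.3.1 (Agilent's version 10.5 in the submitters' processing notes); their processed signal is background-corrected, and their flags mark probes well above background. Each column was matched to the scan that ranks like it (next best Spearman rho across probes at most 0.993), and that scan gave flags and replicate-spot errors.

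Probe accessions were matched to RefSeq symbols: 18006 of 30367 probes matched, and 2240 genes had several probes with values. The probe with the highest mean stood for its gene. A gene was measured in a comparison if well above background on at least 1 of the 2 arrays; a dim side was set to the lowest value among probes well above background, giving a bound. Spot error is the SD between spots, pooled over 20 intensity bins, divided by the root of the number of spots and combined over both arrays. A difference counted from 2-fold; with 1 array a group no test was made, and their number limits the precision. The calculation was tested on simulated data. Scripts used Python 3.11.15, pandas 2.3.3, numpy 2.4.6, R 4.3.3 and limma 3.58.1.

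The genes and lists were chosen with earlier results of these data known. Named from each list were the 2 highest and 2 lowest differences in a comparison, and as nearest genes the 3 of least RMS. The marker genes Ngfr, Mbp, Cldn1 and Col1a1 were named after their values were seen. Some genes that this rule would name are not reported here. Alternatives were the matched scans scaled to the 75th percentile, normexp (offset 50, on median spot and background signals) with quantile normalization, the scans as recorded, the mean of probes, a filter on both arrays, no filter, and 1.5-fold.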

Additional observations from a re-analysis of the deposited data

Results flagged for a closer look

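Itgb4 differed from the unstimulated Schwann cell culture in opposite directions at the 2 times of S100A8/A9, by -1.33 at 1 h and by 0.22 at 24 h. It stands here because the sign differed between the times; the difference between them was not tested, since each time is 1 array, and both share the unstimulated culture of 24 h.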

How the results depend on the processing

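Of the 17 differences of at least 2-fold among the 5 genes, all 17 kept their sign under the matched scans at the 75th percentile. They also did so with normexp and quantile normalization and with the mean of probes, which could change only Lamc1 and Itgb1, the genes with a second probe. The filter on both arrays and no filter could not change any of these values, since the 5 genes were well above background on every array. With the scans as recorded, 5 differences kept their sign and 12 turned. Turned values were, for distal against contralateral nerve, Lamb2 0.17, Lamc1 0.67, Itga7 0.31 and Itgb4 1.17; for proximal against contralateral nerve, Lamb2 1.32 and Lamc1 3.43; for Schwann cells at 1 h, Itgb4 1.61; for unstimulated Schwann cells against nerve, Itga7 1.11 and Itgb4 1.8; and for contralateral nerve against C-level cord, Lamb2 -1.52, Lamc1 -3.5 and Itgb1 -1.89. That pairing also changed how many of the 5 genes were at least 2-fold apart, in all 8 comparisons. The counts became 1 for distal and 4 for proximal against contralateral nerve, 4 for distal against proximal and 0 for the cord. They became 3 for 1 h, 5 for 24 h, 2 for culture against nerve and 4 for nerve against C-level cord. Under that pairing the comparisons set other arrays against each other. The scan recorded under contralateral nerve, for example, ranks like the column of the dorsal hemisection. Why the pairings differ was not tested. At 1.5-fold the count was 2 for distal against proximal nerve, 3 for the cord and 5 for culture against nerve, as a lower threshold admits more. In the cord it was 0 with normexp and 2 with the mean of probes. Normexp also lowered the share of all genes at least 2-fold lower in distal against contralateral nerve to 8.4%. Leaving out a replicate was not possible with 1 array a group. No paired analysis was possible because each group had 1 sample. Itga7, the dimmest of the 5 probes, had spot errors up to 0.19.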
